A study of Homo sapiens with 8 samples.

Results

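The human cell line HAP1, a near-haploid line derived from a chronic myeloid leukemia, was separated into RNA fractions, and the loci described here are stretches of RNA assembled inside the introns of long protein-coding genes, far from any exon. A locus was taken from the short-read gene table when it bore an identifier that the authors' transcript assembly had given it (MSTRG), overlapped no exon of GENCODE release 44 on its own strand, lay at least 1000 bases from the nearest exon on that strand, and sat in a protein-coding host gene spanning at least 100000 bases. The host was the longest gene on that strand to contain the locus, and 37 of the loci kept lay in more than 1 gene. A locus also needed at least 10 normalized counts in at least 3 short-read libraries. These conditions were met by 704 loci in 387 host genes on 23 chromosomes, out of 62635 genes in the table, and they made up part of the 2213 intronic loci that passed the same count minimum. Another 23 loci met the position rule but fell under the count minimum. At the edges of the rule, the nearest exon was 1003 bases away for the closest locus kept and 999 bases for the farthest left out, the shortest host kept spanned 100028 bases and the longest left out 99649, and the value in the third-highest library was 10.5 for the lowest locus kept and 9.88 for the highest left out.

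The study had 8 libraries of HAP1 cells in 3 groups. The 3 chromatin libraries and the 3 nucleoplasm libraries were short-read libraries from 3 independent cultures, and the other 2 were long-read libraries of chromatin RNA. Every group came from the same unedited line grown in IMDM with serum and no further treatment. Nuclei were broken open with urea and NP-40, the pellet giving the chromatin fraction and the supernatant the nucleoplasm. The fraction label of the samples names chromatin for each of the 8 libraries, so the groups follow the sample titles, and the levels of marker RNAs were checked against them. MALAT1 and NEAT1, nuclear RNAs that stay with chromatin, had log2 fold changes of chromatin over nucleoplasm of 3.09 and 2.40, whereas the mRNAs of GAPDH and B2M had -2.35 and -2.11. BCR and ABL1, the genes of the fusion that marks this leukemia, were present at 697 to 1437 and 906 to 1470 normalized counts. Of 10 markers of blood cells, 6 were under 10 normalized counts in every short-read library, with PTPRC, SPI1, MPO and GATA1 at 0, and 1 had no row, while LMO2, TAL1 and CD38 were above. The total was 38895027 to 43804918 reads in the chromatin libraries and 75737601 to 79523938 in the nucleoplasm libraries. A single line was studied, so the values describe HAP1 cells, and in bulk libraries a locus transcribed in few cells and one transcribed weakly in every cell cannot be told apart.

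Long genes are mostly intron. RNA polymerase II transcribes exons and introns into a nascent RNA that stays tied to chromatin through the polymerase, splicing removes the introns while or soon after they are made, and the excised introns are usually degraded within the nucleus, whereas the spliced mRNA is released into the nucleoplasm and exported. Introns also harbour repeats, regulatory elements, small RNA genes and copies of spliced mRNAs that were written back into the genome, which are known as processed pseudogenes. RNA seen over an intron can therefore be unspliced host RNA, excised intron, an independent transcript, or reads that belong to a similar sequence elsewhere.

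Several hosts held a series of loci separated by short gaps, and the sequence of the gaps shows what lay between them. Of 317 pairs of neighbouring loci in the same host, 114 were separated by 1 to 1000 bases, and of these gaps 93 measured 250 to 500 bases and 1 was under 250 bases, at 142. Gaps of SUPT3H and GPHN, each of at most 300 bases and in hosts with many loci, are printed as hg38 gives them on the host's strand, to show 1 gap without and 1 with repeated words. Capitals mark bases inside words of 32 bases that occur more than once in hg38, and lower case marks bases in no such word. A second copy inside the same gap also counted, and the GPHN gap repeats stretches of itself. Repeated words therefore need not recur outside the gap. The SUPT3H gap is chr6:45304883-45305157 on the minus strand, and the GPHN gap is chr14:66629065-66629341 on the plus strand.
SUPT3H gap: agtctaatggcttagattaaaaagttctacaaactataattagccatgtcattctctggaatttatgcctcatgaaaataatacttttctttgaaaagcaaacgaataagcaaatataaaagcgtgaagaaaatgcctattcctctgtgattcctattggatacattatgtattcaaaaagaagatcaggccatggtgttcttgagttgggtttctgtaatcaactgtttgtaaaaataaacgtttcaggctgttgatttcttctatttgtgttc
GPHN gap: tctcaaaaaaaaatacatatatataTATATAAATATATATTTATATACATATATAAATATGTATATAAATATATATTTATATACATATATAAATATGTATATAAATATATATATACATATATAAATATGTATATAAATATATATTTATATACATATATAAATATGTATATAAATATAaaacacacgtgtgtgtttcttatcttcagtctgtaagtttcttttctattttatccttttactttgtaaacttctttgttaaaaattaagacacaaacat

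In the GPHN gap, between MSTRG.9550 and MSTRG.9551 and largely A and T, 38.2% of the words were repeated, against 7.32% in the flanking bases of the loci. The SUPT3H gap, between MSTRG.28222 and MSTRG.28221, had none, so a repeat was not a constant feature. Over the 114 gaps the median share of repeated words was 51.5%, against 5.17% in the flanks. The share was higher in the gap than in its flanks for 74 gaps, lower for 16 and the same for 24, and 58 gaps but only 2 flanks had more than 50% repeated words. In 32 gaps no word was repeated. Across such a gap the log2 fold changes of the 2 loci differed by a median of 0.27. The median SD of log2 values between replicates of one locus was 0.29. These measures are not alike, and the difference across gaps was not tested. Joining loci over gaps of up to 1000 bases turned the 704 loci into 587 runs, of which those with at least 2 loci held 203 loci. How reads that map to repeats were treated was not given in the sources used here, and its part in the gaps was not tested. The authors merged the assemblies of the libraries with StringTie at its default settings. The part of that step in where loci were split and in the gap lengths was not tested either.

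**Figure D1:**
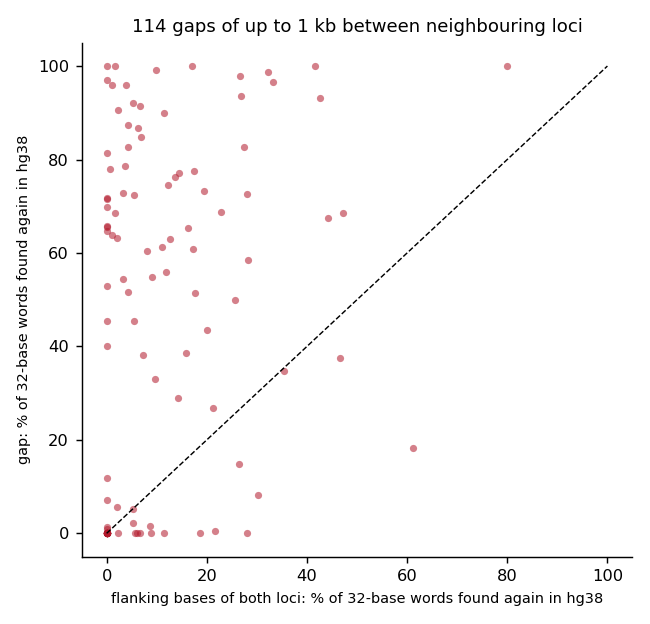
Each of 114 points is a gap of up to 1 kb between neighbouring loci of one host. The vertical axis is the percentage of 32-base words in the gap that recur in hg38, the horizontal axis the percentage in the flanking bases of both loci, and the dashed line marks equal shares. Of the gaps, 74 lie above the line, 16 below it and 24 on it.

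A second set of sequences shows loci that were nearly identical to RNAs made elsewhere in the genome. GNA12 MSTRG.30118 is shown over chr7:2753780-2753993 (hg38, minus strand) beside the part of an RPL17 transcript it matched, with the 3 mismatched positions in capitals. RBFOX2 MSTRG.21833 is shown over chr22:35838580-35838657 (minus strand) beside the coding sequence of RPL41, with no mismatch. HFM1 MSTRG.1501 is shown over chr1:91387392-91387591 (minus strand) beside a stretch of the 45S ribosomal DNA repeat on an unplaced contig of hg38, with 1 mismatch in capitals. The transcripts are those of GENCODE release 44.
GNA12 MSTRG.30118: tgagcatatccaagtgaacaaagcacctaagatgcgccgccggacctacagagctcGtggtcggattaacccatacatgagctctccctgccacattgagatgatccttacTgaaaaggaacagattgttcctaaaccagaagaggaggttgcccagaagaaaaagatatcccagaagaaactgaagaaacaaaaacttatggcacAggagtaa
RPL17: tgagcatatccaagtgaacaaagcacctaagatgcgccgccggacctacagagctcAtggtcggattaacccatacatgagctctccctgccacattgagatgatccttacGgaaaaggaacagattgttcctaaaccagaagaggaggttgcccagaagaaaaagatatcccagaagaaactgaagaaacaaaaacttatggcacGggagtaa
RBFOX2 MSTRG.21833: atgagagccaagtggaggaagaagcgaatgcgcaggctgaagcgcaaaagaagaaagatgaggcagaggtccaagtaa
RPL41: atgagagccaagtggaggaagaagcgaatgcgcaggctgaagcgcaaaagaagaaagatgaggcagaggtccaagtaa
HFM1 MSTRG.1501: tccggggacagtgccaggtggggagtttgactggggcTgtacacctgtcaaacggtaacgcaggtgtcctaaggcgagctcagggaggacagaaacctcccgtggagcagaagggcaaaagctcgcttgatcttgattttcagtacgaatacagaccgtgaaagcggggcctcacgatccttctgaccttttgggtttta
45S ribosomal DNA repeat: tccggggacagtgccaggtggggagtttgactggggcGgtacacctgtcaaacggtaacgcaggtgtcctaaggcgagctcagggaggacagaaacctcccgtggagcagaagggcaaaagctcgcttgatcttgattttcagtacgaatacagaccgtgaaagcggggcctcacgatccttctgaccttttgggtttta

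The 704 loci had a median span of 3340 bases (quartiles 849 and 10024, range 200 to 116139) and together covered 5297 kb. Spans under 1000 bases were found for 202 loci and spans of 10000 bases or more for 177. Their hosts spanned a median of 275 kb, and the interval between the exons on either side of a locus, counting every annotated transcript, had a median of 44.5 kb, of which a locus filled a median of 9.09%. The nearest exon was a median of 6.11 kb away and at most 182 kb. Loci lay nearer the start than the end of their hosts, at a median of 29.96% of the span (quartiles 13.3 and 54.1), or 76.2 kb from the start. In the canonical transcript 650 loci were in an intron, 240 of them (36.9%) in intron 1, 113 in intron 2, 75 in intron 3 and 222 in a later one, and 54 were in no intron of that transcript. GC content had a median of 37.9%. An exon on the opposite strand overlapped 46 loci and a gene on the opposite strand 72. The kit was stranded, and reads leaking from the opposite gene were not tested for. Chromosome 3 held 64 loci, chromosome 4 61, chromosome 6 60, and chromosome 21 only 1.

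Levels of these loci in chromatin were moderate and alike across much of the list. The median locus had 312, 400 and 311 normalized counts in the 3 chromatin libraries and 15.8, 15.5 and 14.4 in the 3 nucleoplasm libraries. Per kb of span, the median was 99.6, 124 and 95.2 normalized counts in chromatin and 3.76, 3.60 and 3.25 in nucleoplasm. Averaged over the chromatin libraries, the quartiles were 88.5 and 133 normalized counts per kb. No locus was at 0 in a chromatin library, whereas 34, 37 and 30 loci were at 0 in the nucleoplasm libraries. Loci were listed only where reads sufficed for assembly and for the count minimum, which 701 of 704 loci reached in every chromatin library. Both conditions bear on the range of chromatin levels, here and in the comparisons of levels below. How far they narrow that range was not tested.

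Chromatin against nucleoplasm is the comparison the design makes, and it asks which RNAs remain with chromatin. The fold changes below are on the scale log2(normalized count + 1), and a call required an adjusted p below 0.05 by limma with Benjamini-Hochberg adjustment over 26066 genes and a change of more than 4-fold. Among all tested genes 21.2% were called higher in chromatin and 8.47% higher in nucleoplasm. Of the 701 loci tested, 651 (92.9%) were called higher in chromatin, 5 (0.713%) higher in nucleoplasm and 45 neither. The median log2 fold change was 4.75 (quartiles 3.93 and 5.27, range -3.12 to 6.30), beside -0.02 over all tested genes, and 515 loci were above 4. The 3 loci not tested, FRMD4A MSTRG.3387, PLOD2 MSTRG.23740 and STIM2 MSTRG.24648, each spanned 200 bases, the minimum that the test had to exceed.

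The count minimum bears on these figures. Of the 704 loci, 701 reached 10 normalized counts in every chromatin library but 379 did so in every nucleoplasm library, and 247 were under 10 in every nucleoplasm library, so many could enter the list only by being higher in chromatin, and the counts above are not support for a difference. Among the 376 loci with at least 10 normalized counts in each of the 6 libraries, 337 (89.6%) were called higher in chromatin with a median log2 fold change of 4.91. In these 376 loci the 3 chromatin values were all above the 3 nucleoplasm values for 348 (92.6%), against 44.6% of all tested genes, and the 3 nucleoplasm values were all above for 19 (5.05%), against 46.0%. The tested genes had passed a looser filter, with at least 10 normalized counts in only 3 libraries, so these shares are not over like sets. Scaling by the ERCC spike-in RNAs, added in equal volume to each fraction, moved the median of all genes by -1.32 and that of the loci to 3.54. Setting each library to the same total moved them by 0.46 and to 5.18. The direction of the median did not turn under either scaling.

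By span, the median log2 fold change was 3.60 for loci under 500 bases, 4.26 from 500 to 1000, 4.72 from 1000 to 2000, 4.74 from 2000 to 5000, and 5.18 for 294 loci of at least 5000 bases. On this scale low counts understate a change. The other kinds of intronic loci in the table had lower medians. It was 3.72 for 385 remote loci in coding hosts shorter than 100 kb, 3.08 for 791 loci within 1 kb of an exon of a coding host, and 2.85 for 333 loci in hosts that do not code for protein. Among loci of at least 5000 bases the same order held, at 5.18 against 4.59, 4.47 and 4.26. The chromatin levels per kb were close, with medians in the first chromatin library of 99.6, 105, 109 and 101 normalized counts per kb, whereas the nucleoplasm medians in its first library were 3.76, 7.44, 12.8 and 14.5. These differences between kinds of loci are descriptions and were not tested.

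Loci were next set against the gene that holds them. A host gene's row counts mainly exons, and its own log2 fold change was near 0: over 379 host genes tested the median was 0.08 (quartiles -0.57 and 0.89), with 19 called higher in chromatin and 4 higher in nucleoplasm. When each locus was set against its host within the same libraries by limma, 91.2% of all 2073 intronic loci with a host row fitted were further towards chromatin than the host and 4.10% further towards nucleoplasm, at an adjusted p below 0.05 with no fold minimum. Of 693 remote loci fitted, 663 (95.7%) were further towards chromatin and 20 (2.89%) further towards nucleoplasm, shares near those of intronic loci as a whole. The count minimum bears on these shares too, and of the 371 fitted loci with at least 10 normalized counts in each library, 347 (93.5%) were further towards chromatin and 17 (4.58%) further towards nucleoplasm, with a median difference of 4.46. Over the 693 the median difference from the host was 4.39 on the log2 scale (quartiles 3.33 and 5.26, range -4.48 to 7.61).

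**Figure D2:**
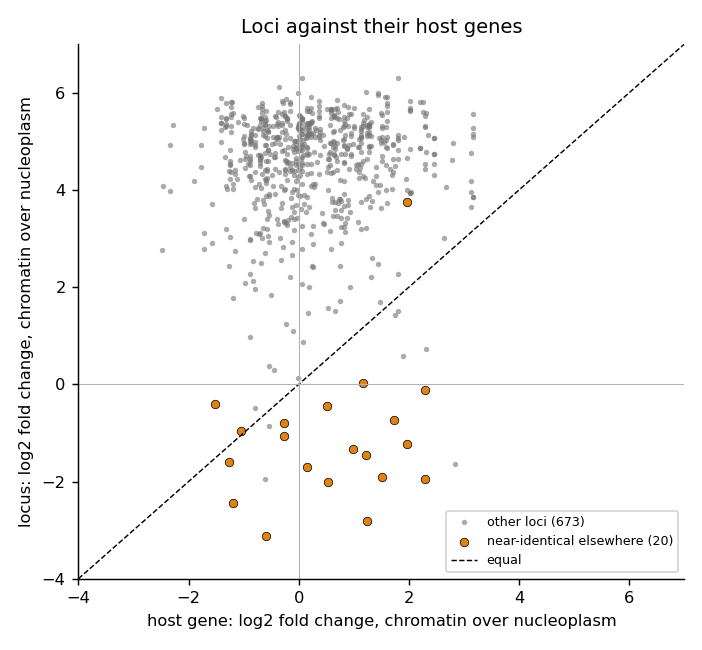
Each point is a locus, with the log2 fold change of chromatin over nucleoplasm of its host gene on the horizontal axis and its own on the vertical axis. The dashed line marks equal values, and orange points are loci near-identical to a sequence elsewhere. The grey points lie mostly above the line whatever the host's value, and most orange points lie below 0.

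Hosts differed in how many loci they held. A single locus was found in 257 hosts (66.4%), 2 loci in 52, 3 in 35, 4 in 14, 5 in 10 and 6 or more in the rest, and the 130 hosts with at least 2 loci held 447 of the 704 loci (63.5%). The 29 hosts with at least 5 loci held 182. The loci of one host share a gene and are not replicates of each other. The loci of 119 of the 130 hosts were each called higher in chromatin, and within a host the log2 fold changes ranged over a median of 0.76. The 8 hosts with the most loci, 66 in all, are taken in turn.

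SUPT3H, which encodes a subunit of SAGA-type histone acetyltransferase complexes, held 11 loci in 569 kb of chromosome 6 (44809317 to 45377953, minus strand), covering 20.1% of the gene. The 5'-most, MSTRG.28225, spanned 19612 bases and had 2665, 3721 and 2790 normalized counts in chromatin and 102, 69.7 and 88.7 in nucleoplasm, for a log2 fold change of 5.12 (SE 0.16). The 3'-most, MSTRG.28209, had 1172, 1546 and 1171 in chromatin and 41.2, 34.4 and 20.3 in nucleoplasm, for 5.34. In both the lowest chromatin value was more than 10 times the highest nucleoplasm value, and per kb the chromatin mean was 156 normalized counts at the 5'-most and 84.7 at the 3'-most. The log2 fold change was highest at MSTRG.28221, at 5.66, with 466, 551 and 373 normalized counts in chromatin and 7.90, 11.2 and 5.91 in nucleoplasm. It was lowest at MSTRG.28220, at 3.88, a locus of 233 bases with 30.3, 32.4 and 14.3 in chromatin and 0, 1.72 and 0.845 in nucleoplasm. Every locus was called higher in chromatin, and the SUPT3H gene itself had a log2 fold change of 1.27.

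TTC28, which encodes a large protein of tetratricopeptide repeats, held 9 loci in 702 kb of chromosome 22 (27978014 to 28679840, minus strand). The 5'-most, MSTRG.21684, had 1962, 2916 and 1831 normalized counts in chromatin and 75.5, 63.7 and 55.8 in nucleoplasm. The 3'-most, MSTRG.21674, of 570 bases, had 78.0, 151 and 88.9 in chromatin and 1.76, 4.30 and 5.07 in nucleoplasm. Per kb of span the chromatin means were 263 and 186 normalized counts, but an intermediate locus, MSTRG.21676, had only 37.1, so the level did not fall evenly along the gene. The log2 fold change was lowest at MSTRG.21678, at 3.20, whose 16372 bases had 2080, 2815 and 1889 normalized counts in chromatin and 243, 239 and 244 in nucleoplasm. Scaled by ERCC its value was 1.87, under the 4-fold minimum. The highest, MSTRG.21681, was at 5.29, and the TTC28 gene was at 1.13.

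GPHN encodes gephyrin, the scaffold of inhibitory synapses and an enzyme of molybdenum cofactor synthesis. Its 9 loci lay in 674 kb of chromosome 14 (66507407 to 67181803, plus strand), in 7 intervals between exons. The 5'-most, MSTRG.9548, had 1820, 2294 and 1718 normalized counts in chromatin and 51.8, 49.9 and 44.8 in nucleoplasm, for a log2 fold change of 5.28. The chromatin mean per kb was 181 normalized counts there, 65.0 at its lowest and 113 at the 3'-most locus, MSTRG.9560. The log2 fold changes ran from 3.90 at MSTRG.9553 to 5.99 at MSTRG.9558, where chromatin had 1083, 1538 and 986 normalized counts and nucleoplasm 28.1, 8.61 and 21.97. The GPHN gene was at -0.02, so the loci stood apart from a host with nearly equal values in the fractions.

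MAML3, a coactivator of Notch signalling, held 8 loci over 27.3% of its 437 kb on chromosome 4 (139716753 to 140154184, minus strand). The 5'-most, MSTRG.25393, had 3076, 3656 and 2722 normalized counts in chromatin and 87.8, 86.9 and 74.4 in nucleoplasm. The chromatin mean was 152 normalized counts per kb there and 84.4 at the 3'-most, MSTRG.25386, but MSTRG.25390 between them had 65.0 and MSTRG.25388 118, so the level did not fall evenly. The log2 fold changes were close together, from 4.67 at MSTRG.25390 to 5.47 at MSTRG.25388, whose 33470 bases had 3631, 4881 and 3370 normalized counts in chromatin and 90.4, 94.7 and 76.9 in nucleoplasm. The MAML3 gene was at 0.05.

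ATG10 encodes the E2-like enzyme that joins ATG12 to ATG5 in autophagy, and it held 8 loci in 305 kb of chromosome 5 (81972023 to 82276857, plus strand). The 5'-most, MSTRG.26358, of 449 bases, had 33.8, 80.5 and 47.2 normalized counts in chromatin and 1.76, 0 and 2.54 in nucleoplasm. Its chromatin mean of 120 normalized counts per kb was not above the 93.6 of the 3'-most, MSTRG.26368, in each library. The log2 fold changes ran from 2.27 (SE 0.18) at MSTRG.26360 to 5.07 at MSTRG.26363. MSTRG.26360 had 243, 295 and 176 normalized counts in chromatin and 48.3, 49.1 and 44.8 in nucleoplasm, groups that did not overlap, and under ERCC scaling its value was 0.97 and the call was lost. The ATG10 gene was at -0.88.

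DLG2, a scaffold protein of the postsynaptic density and the longest host, at 2173 kb of chromosome 11 (83455012 to 85628335, minus strand), held 7 loci over 1.80% of its span, and they fell into different kinds. The 5'-most, MSTRG.5797, had 355, 506 and 416 normalized counts in chromatin and 8.78, 5.17 and 11.8 in nucleoplasm, for a log2 fold change of 5.52. MSTRG.5792, of 250 bases, had the reverse order, with 358, 271 and 360 in chromatin and 1366, 1223 and 1206 in nucleoplasm, for -1.95 (SE 0.11). The 3'-most, MSTRG.5782, of 202 bases, had 60.6, 45.6 and 45.01 in chromatin and 54.4, 50.8 and 58.3 in nucleoplasm, groups that overlapped, for -0.12 (adjusted p = 0.47 by limma). MSTRG.5792 and MSTRG.5782 each matched a spliced mRNA, of HNRNPC and TMEM167A, at 95% identity or more. The other 5 loci were called higher in chromatin, and the DLG2 gene was at 2.29. With a range of 7.47 on the log2 scale, DLG2 had the widest spread of any host with at least 2 loci.

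CENPP encodes a component of the constitutive centromere network, and its 7 loci all lay in one interval of 220 kb on chromosome 9, within a gene at 92325953 to 92620529 on the plus strand. They covered 23.2% of the gene. The highest log2 fold change was 4.91, at MSTRG.33851, whose 26000 bases had 3049, 4447 and 2932 normalized counts in chromatin and 110, 108 and 119 in nucleoplasm. The lowest was 3.70, at MSTRG.33847. The chromatin mean per kb was 177 normalized counts at the 5'-most, MSTRG.33844, and 84.5 at the 3'-most, MSTRG.33854, within this same interval, with 134 at MSTRG.33851 between them. The CENPP gene was at -0.05.

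EFNA5 encodes ephrin A5, a membrane-bound ligand of Eph receptors in axon guidance. Its 7 loci covered 31.1% of 294 kb on chromosome 5 (107376894 to 107670937, minus strand). The largest in level, MSTRG.26535 (107592132 to 107618972), had 14478, 19999 and 14624 normalized counts in chromatin and 378, 358 and 284 in nucleoplasm, for a log2 fold change of 5.58 (SE 0.15). From 5' to 3' the chromatin means per kb were 483, 610, 564, 507, 193, 180 and 168 normalized counts, so the first 4 loci, all in intron 1, were each above 400 and the later 3 below 200. MSTRG.26533, the last of the 4, had 7633, 10637 and 7591 normalized counts in chromatin and 163, 168 and 169 in nucleoplasm, whereas MSTRG.26532, also in intron 1 of the canonical transcript but in another interval, had 4699, 6478 and 4569 in chromatin over a longer span of 27169 bases. The log2 fold changes stayed between 4.34 and 5.67, and the EFNA5 gene was at 0.58.

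**Figure D3:**
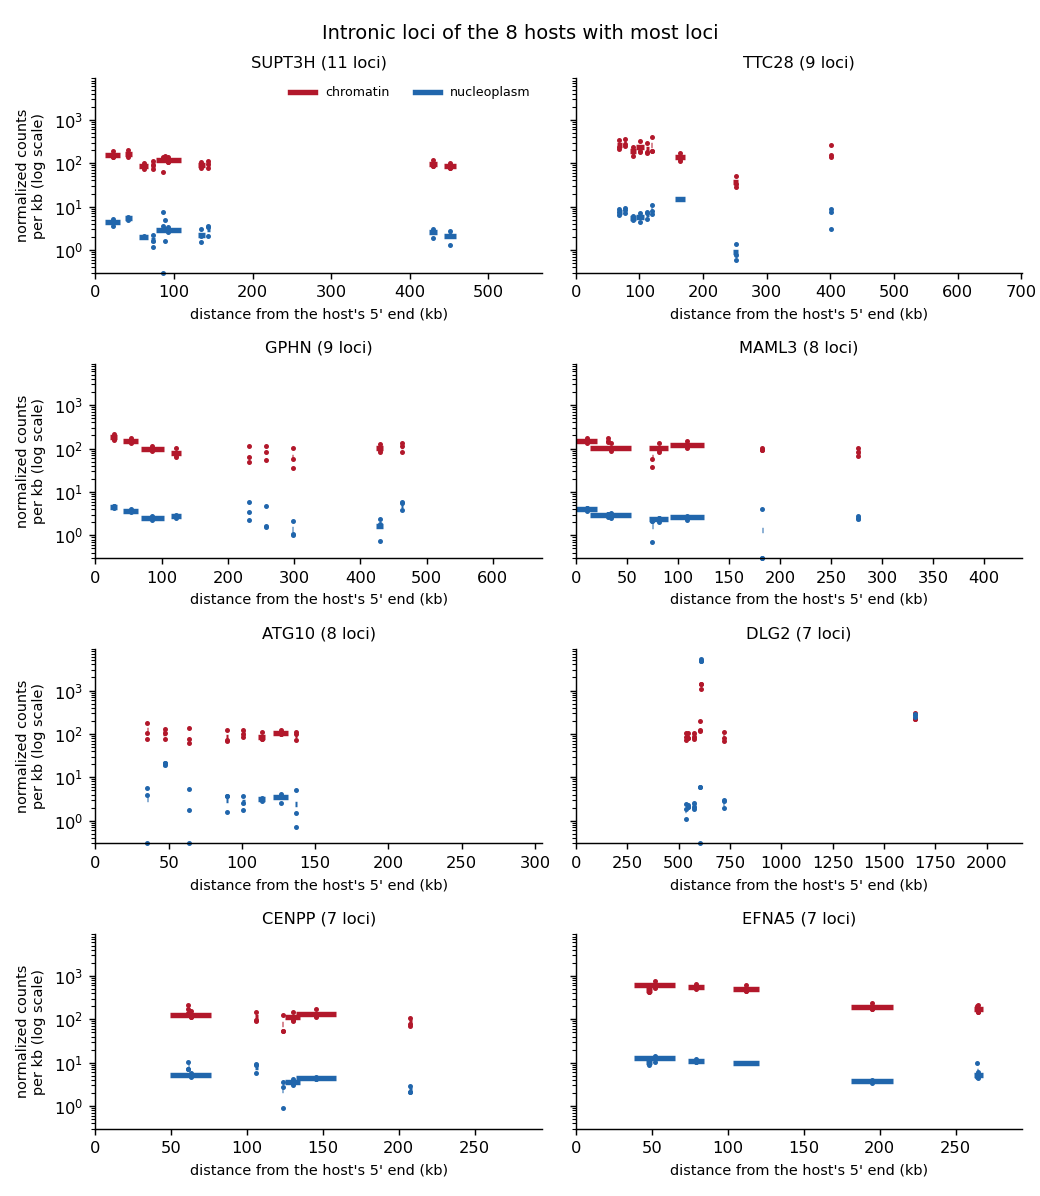
For each of the 8 hosts with most loci, the horizontal axis is the distance from the host's 5' end in kb and the vertical axis, on a log scale, the normalized counts per kb of locus. Points are libraries, drawn at the 5' edge of a locus, red for chromatin and blue for nucleoplasm, with libraries at 0 at the lower edge. Horizontal bars are the mean and as long as the locus. They are centred on its 5' edge, so each is shifted towards the host's 5' end. Chromatin lies above nucleoplasm at each locus except 2 of DLG2, and in EFNA5 the chromatin level steps from 483 to 610 normalized counts per kb at the first 4 loci to 168 to 193 at the last 3.

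Along the 130 hosts with at least 2 loci, the 5'-most locus had a higher chromatin level per kb than the 3'-most in each of the 3 chromatin libraries in 64 hosts (49.2%), the 3'-most was higher in each in 31 (23.8%), and 35 were mixed. The same counts over all 390 hosts with at least 2 intronic loci of any kind were 48.7% and 22.3%, so the remote loci of long hosts did not stand apart. The median ratio of the 5'-most to the 3'-most was 1.11. Among the 78 hosts with at least 3 loci the counts were 44 and 16. The same counts were not made over all hosts with at least 3 intronic loci of any kind, so these 78 hosts cannot be set apart. KCTD8, an auxiliary subunit of GABA-B receptors whose 6 loci lay in one interval and covered 49.2% of the gene, had 351 normalized counts per kb in chromatin at MSTRG.24744 and 107 at MSTRG.24739. MECOM, a zinc-finger transcription factor, went from 197 at MSTRG.23924 to 86.2 at MSTRG.23917. SLIT2, the ligand of ROBO receptors, went from 176 to 78.7 over 5 loci in one interval. METTL15, a methyltransferase gene, had 342 at MSTRG.4999 and 128 at MSTRG.5006, with lower means at the loci between them. KCTD8, MECOM, SLIT2 and METTL15 were chosen after their values were seen.

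The fraction ratio of the outermost loci was then compared within each host. In the limma fit of the 5'-most minus the 3'-most intronic locus of each host, 24.1% of 390 hosts had the 5' locus further towards chromatin and 13.1% the 3' locus, at an adjusted p below 0.05. Of the 130 hosts with at least 2 remote loci, the 5' locus was further towards chromatin in 23 (17.7%), the 3' locus in 18 (13.8%), and 89 passed in neither direction, with a median difference of 0.03 on the log2 scale. In 104 of these hosts both loci of the pair were remote loci, and in the others the outermost intronic locus was of another kind. The number of calls rose to 79, 43 and 36 by direction, with a pseudocount of 5 in place of 1. Among the called pairs, 3 held a locus near-identical to a sequence elsewhere. Among the 8 hosts with most loci DLG2 alone was called, with a difference of 5.65 (SE 0.32, adjusted p = 3.7e-05 by limma). Its 3' locus, MSTRG.5782, is the match of the TMEM167A mRNA, so the call rests on a locus whose counts are uncertain. The adjusted p of the other hosts by limma was 0.059 for CENPP, 0.060 for EFNA5 and 0.14 to 0.76 for the rest.

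PPARG, the nuclear receptor of adipocyte differentiation, had the widest difference with neither locus matching another sequence and both in the list, at 5.48 (SE 0.17, adjusted p = 3.98e-06). Its 5' locus, MSTRG.22353, had 394, 515 and 471 normalized counts in chromatin and 15.8, 12.1 and 12.7 in nucleoplasm. Its 3' locus, MSTRG.22355, had 215, 209 and 234 in chromatin and 347, 273 and 308 in nucleoplasm, each nucleoplasm value above each chromatin value. HS2ST1, a heparan sulfate sulfotransferase, differed by 2.50 (SE 0.26, adjusted p = 0.000485). Its 5' locus MSTRG.1459 had 1995, 2729 and 1922 normalized counts in chromatin and 56.2, 55.1 and 54.9 in nucleoplasm, and its 3' locus MSTRG.1462 96.7, 86.5 and 97.7 against 12.3, 15.5 and 11.0. In FAM13A the order was the reverse, at -2.09 (SE 0.15, adjusted p = 0.000124). The 5' locus MSTRG.25070 had 139, 187 and 162 normalized counts in chromatin and 45.6, 56.0 and 44.8 in nucleoplasm, and the 3' locus MSTRG.25064 had 290, 361 and 305 against 21.9, 22.4 and 21.1. PPARG, HS2ST1 and FAM13A were chosen after their values were seen.

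Read by position instead of by host, the median log2 fold change was 4.79, 4.91, 4.87, 4.43 and 3.88 in successive stretches of 20% of the host from 5' to 3', with 258, 168, 122, 90 and 66 loci. The chromatin level per kb hardly varied, with medians of 97.4, 93.2, 102, 105 and 101 normalized counts in the first chromatin library. The nucleoplasm level per kb was higher towards the 3' end, with medians of 3.52, 3.25, 3.80, 4.37 and 6.24 in the first nucleoplasm library, 3.61, 3.25, 3.48, 4.00 and 5.94 in the second, and 3.31, 2.88, 3.15, 3.88 and 5.09 in the last. Other properties moved with position. The median interval between exons was 55.3 kb in the first stretch and 12.5 kb in the last, the median span 3689 and 1610 bases, and 22.9% and 42.4% of loci were under 1 kb. Restricted to loci of at least 1 kb with no near-identical sequence elsewhere, the medians were 5.03, 5.07, 5.06, 4.91 and 4.52. How far the interval, the span or the position each account for the lower values was not tested.

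The interval between exons moved with the ratio in the same way. Loci in intervals under 10 kb had a median log2 fold change of 3.25, against 4.39 from 10 to 30 kb, 4.94 from 30 to 100 kb and 5.09 at 100 kb or more. Chromatin levels were again flat, with medians of 105, 103, 106 and 102 normalized counts per kb, and the nucleoplasm medians were 10.5, 4.32, 3.09 and 2.86. These are descriptions over loci that share libraries and hosts.

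**Figure D4:**
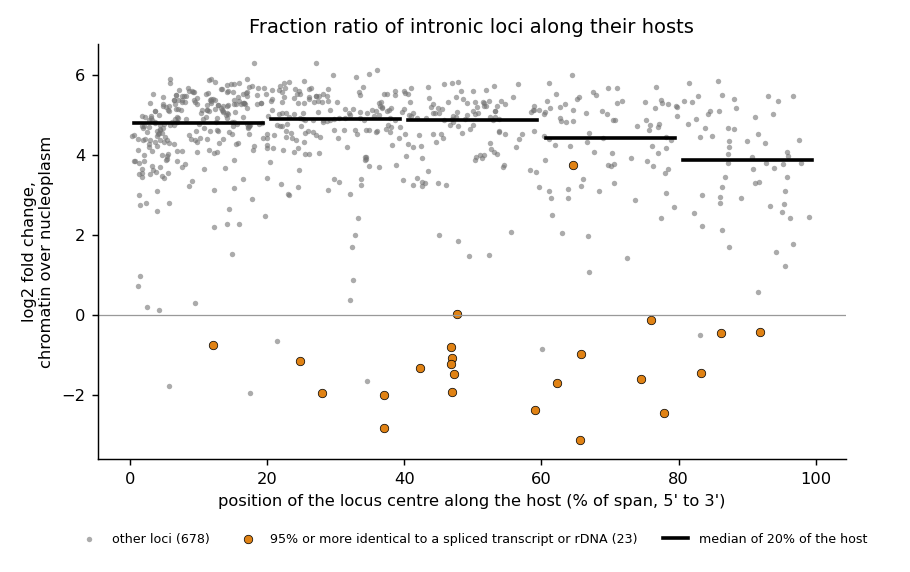
Each point is a locus, with the position of its centre along the host from 5' to 3' in percent on the horizontal axis and its log2 fold change of chromatin over nucleoplasm on the vertical axis. Orange points are the 23 loci at least 95% identical to a spliced transcript or ribosomal DNA, and black bars are medians over each 20% of the host, which run from 4.79 in the first to 3.88 in the last. All but 2 of the orange points lie below 0.

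The loci with the highest counts were of 2 kinds. KCTD8 MSTRG.24743 (chromosome 4, 44345642 to 44426791, minus strand) had 15793, 19396 and 15340 normalized counts in chromatin and 570, 513 and 431 in nucleoplasm, for a log2 fold change of 5.06 beside 2.46 for the KCTD8 gene. NKAIN3 MSTRG.32351, the longest locus at 116139 bases, in a gene for a protein that interacts with the sodium pump, had 12647, 17357 and 12555 in chromatin and 395, 380 and 343 in nucleoplasm, for 5.23 beside -0.25 for its host. DACH1 MSTRG.8661, in a transcription factor gene of the dachshund family, had 11557, 15696 and 12026 in chromatin and 243, 246 and 239 in nucleoplasm, for 5.73 beside 1.60 for its host. In each, as in EFNA5, the groups were far apart, and the second chromatin library was the highest of the chromatin values. Per kb their chromatin means were ordinary to high, as their counts came largely from their length. HFM1 MSTRG.1501, SLCO5A1 MSTRG.32407 and RBFOX2 MSTRG.21833, in contrast, each spanned at most 501 bases and did not follow the pattern of the rest.

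Among loci with at least 10 normalized counts in each library, the highest ratio was at RB1CC1, a subunit of the complex that starts autophagy. MSTRG.32275 there had 1724, 2051 and 1480 normalized counts in chromatin and 25.4, 25.8 and 21.1 in nucleoplasm, for a log2 fold change of 6.12 (SE 0.13) beside -0.36 for its host. JAZF1 MSTRG.30357, in a zinc-finger gene, had 1117, 1750 and 1206 in chromatin and 17.6, 18.1 and 23.7 in nucleoplasm, for 6.02. GULP1 MSTRG.19676, in a gene of an engulfment adaptor, had 645, 897 and 624 in chromatin and 10.5, 11.2 and 11.0 in nucleoplasm, for 5.91. The next were TNIK MSTRG.23957, in a kinase gene, and TRPS1 MSTRG.32805, in the gene of a GATA-type repressor, both at 5.86. TRPS1 had the higher level, with 3760, 5082 and 3900 normalized counts in chromatin and 72.0, 81.8 and 62.5 in nucleoplasm, against 1186, 1447 and 1116 and 24.6, 21.5 and 16.1 at TNIK. These 5 hosts lay between -0.36 and 1.57.

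The 5 loci called higher in nucleoplasm each matched a spliced mRNA made elsewhere. RBFOX2 MSTRG.21833, of 394 bases in the gene of a splicing regulator, had 1187, 871 and 1204 normalized counts in chromatin and 9443, 9198 and 9482 in nucleoplasm, for a log2 fold change of -3.12 (SE 0.11, adjusted p = 3.12e-08 by limma). It matched the mRNA of RPL41, a protein of the large ribosomal subunit, at 99.7% identity over 384 bases, and RPL41 itself had 2301, 1879 and 2553 in chromatin and 11337, 10721 and 11243 in nucleoplasm, for -2.32. The RBFOX2 gene was at -0.59, so the locus, the matched gene and the host were all below 0.

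GRB14 MSTRG.19442, in the gene of an adaptor of the insulin receptor, had 115, 93.7 and 123 normalized counts in chromatin and 809, 765 and 763 in nucleoplasm, for -2.81. It matched EIF3E, a subunit of a translation initiation factor, at -1.60, while its host was at 1.24. GNA12 MSTRG.30118, in the gene of a G protein alpha subunit, had 47.8, 38.4 and 41.7 in chromatin and 249, 217 and 242 in nucleoplasm, for -2.45 beside -1.19 for its host. It matched RPL17, shown above, which had no row of its own. LHFPL3 MSTRG.31151, in the gene of a tetraspan membrane protein, had 285, 221 and 317 in chromatin and 1434, 1418 and 1375 in nucleoplasm, for -2.37. It matched EIF4B, another initiation factor, at -1.97, and the host's own row was at 0 in every library. LSAMP MSTRG.23337, in the gene of a neuronal adhesion protein, had 234, 184 and 245 in chromatin and 936, 864 and 848 in nucleoplasm, for -2.00 at the edge of the 4-fold minimum. It matched BZW1 at -1.21 beside 0.53 for its host, and the call was lost under 6 alternatives, with values from -1.98 to -1.54. In these 5 loci the 2 fractions did not overlap. Under a scaling to equal totals GNA12 and LHFPL3 fell to -1.99 and -1.91 and the calls were lost.

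Near-identical sequence elsewhere was found for 23 of the 704 loci at 95% identity or more over at least 50% of the locus. They comprised 19 matches to spliced mRNAs, 3 to ribosomal DNA and 1 to a spliced long non-coding RNA, with identities of 95.2% to 99.8% and spans of 202 to 1060 bases (median 339). Of these 23 loci 21 had a log2 fold change below 0, with a median of -1.33, 5 were called higher in nucleoplasm and 1 higher in chromatin. The latter, in TPTE2, matched TPTEP1 and was at 3.76. Of the mRNA matches 16 lay wholly in the 3' untranslated region of the matched transcript and 3, of RPL41, EIF3E and RPL17, partly in it. For 18 of the matches the gene of the matched transcript was tested. These 17 genes had log2 fold changes of -2.32 to 0.86 and the loci a median of -1.46 against -0.59 for the matched genes, with 16 of 18 loci below the matched gene. For 16 of the loci that match an mRNA the host gene was tested, and over these loci the host's value had a median of 0.76. DLG2 and GRID1 enter that median more than once. Reads of 50 bases from a near-identical mRNA can be placed on either copy, so the counts of these loci are uncertain, and the share of reads that came from each copy was not tested.

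**Figure D5:**
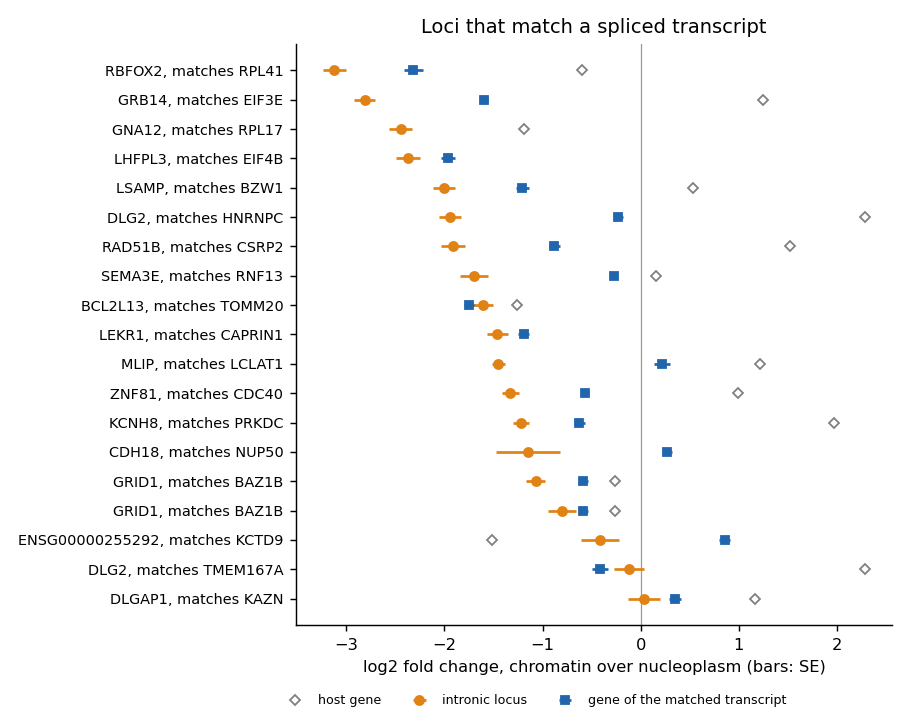
Each line is a locus that matches a spliced transcript, named by its host and the matched gene. Circles are the locus, squares the gene of the matched transcript and open diamonds the host gene, on a horizontal axis of log2 fold change of chromatin over nucleoplasm, with bars for the SE. Most circles lie left of 0 and left of their squares, with hosts mostly right of both.

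The ribosomal matches varied between libraries in another way. HFM1 MSTRG.1501, in the gene of a meiotic DNA helicase, had 18398, 3194 and 2992 normalized counts in chromatin and 12144, 7824 and 8700 in nucleoplasm, for a log2 fold change of -0.74 (SE 0.62, adjusted p = 0.28 by limma). The first chromatin library was the highest of the 6 and the other chromatin libraries were the lowest, and without that library the value was -1.60. SLCO5A1 MSTRG.32407, in the gene of an organic anion transporter family member, had 14505, 2209 and 2109 in chromatin and 7607, 4347 and 5141 in nucleoplasm, for -0.44, and -1.36 without that library. At 90% identity 5 loci matched ribosomal DNA, and in them the first chromatin library was 2.04 to 6.72 times the mean of the other chromatin libraries, against a median of 0.876 over the 704 loci. No locus outside these 5 exceeded 3 times, and how many lay above the lowest of the 5 was not counted. The libraries had been depleted of ribosomal RNA before sequencing.

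With the identity limit lowered to 90%, 29 loci matched and 23 of the 27 loci below 0 were among them. The remaining 4 were RGS7 MSTRG.3167, SATL1 MSTRG.35283, PARD3 MSTRG.3606 and PPARG MSTRG.22355, chosen here after their values were seen. RGS7, a regulator of G protein signalling, had 11.6, 13.2 and 8.78 normalized counts in chromatin and 45.6, 37.0 and 54.9 in nucleoplasm over 268 bases, for -1.94 (SE 0.22). SATL1, a gene related to spermidine acetyltransferases, had 22.1, 20.4 and 25.2 against 81.6, 70.6 and 66.7 over 635 bases, for -1.65. PARD3, a cell polarity scaffold, had 952, 1056 and 990 against 1853, 1780 and 1786 over 8526 bases, for -0.85 (SE 0.05, adjusted p = 7.17e-07 by limma), while other loci of PARD3, MSTRG.3608 and MSTRG.3605, were at 3.92 and 5.31. In each of the 4 the groups did not overlap, yet none passed the 4-fold minimum. Of the 678 tested loci with no match at 95%, limma called 650 higher in chromatin and 0 higher in nucleoplasm, with 6 in the latter direction at an unadjusted p below 0.05. edgeR called 1 in that direction, the RGS7 locus, and DESeq2 0.

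Lists of genes with related roles, limited to genes of at least 100 kb, held few of the loci. Of 25 common fragile site genes, which are long genes prone to breaks under replication stress, 4 were hosts with 15 loci, and 13 were called higher in chromatin with a median of 4.73 on the log2 scale. They were the 7 of DLG2, 6 of IMMP2L, a mitochondrial inner membrane peptidase gene, at 3.85 to 5.56, 1 of FHIT, a nucleotide hydrolase, at 4.73, and 1 of AUTS2 at 4.05. The 2 not called were the mRNA matches in DLG2. Of 35 chromatin and transcription regulators of at least 100 kb, 7 were hosts, and their 15 loci were called higher in chromatin, with a median of 5.09, from 3.31 at BPTF, a nucleosome remodelling subunit, to 5.83 at MECOM. ARID1B, a subunit of the BAF remodelling complex, held 3 of them at 4.97 to 5.58, and NCOA2, NFIB and RUNX1 had 5.05, 4.97 and 4.31.

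A list of adhesion and axon guidance genes was drawn from symbol prefixes (CDH, PCDH, NRXN, CNTN, SEMA, ROBO, SLIT, CTNN, ITGA, ITGB, PTPR and ROR), so it does not hold every such gene, EFNA5 and LSAMP among those left out. Of its 113 genes, 8 were hosts with 18 loci, and 15 were called higher in chromatin, with a median of 4.87. The highest was 5.90, in SLIT2, and ROBO2, a receptor of SLIT ligands, had 5.03 and 5.29. PTPRJ, a receptor phosphatase, held 3 loci at 4.42 to 4.75. The 3 not called were SEMA3E at -1.70 and CDH18 at -1.15, both matches of an mRNA, and RORA at 0.73 (adjusted p = 0.13 by limma). RORA is a nuclear receptor and entered the list only because its symbol begins as those of the ROR receptor kinases do. Of 15 phosphodiesterase genes, 1 was a host, PDE5A, with a locus at 5.10. These counts stand beside 92.9% of the loci as a whole, and no list was tested for a difference from the others.

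Long reads gave another view of the same loci. Coverage was measured with the spans of assembled long-read transcripts of either strand that held no annotated exon on their own strand. In both long-read chromatin libraries, such transcripts covered at least 50% of 245 of the 704 loci (34.8%). Transcripts that reached an exon on their own strand were left out, so a locus counted as not covered may still lie within one of them. Strand was not used to match transcripts to loci, since these cDNA reads do not keep the strand of origin. The exon filter did use it, so a transcript assembled on the wrong strand could count though it spanned an exon of the host. How many did was not tested. Of the 1509 other intronic loci 393 (26.04%) were covered in both. Neither library covered 309 of the 704 loci to that extent. Per the study's methods, the transcripts of the long-read libraries were merged and each library was re-estimated on that shared set. Coverage in both libraries is therefore not independent between them. The loci covered in both had a median of 113 normalized counts per kb in short-read chromatin, against 101 for the others, median spans of 3929 and 2987 bases, and median log2 fold changes of 4.74 and 4.75. EFNA5 MSTRG.26536, MSTRG.26535, MSTRG.26534 and MSTRG.26533 were each covered along their whole span in the first long-read library. The long-read RNA had been given a poly(A) tail by enzyme before sequencing, so a natural tail was not required, and no nucleoplasm long reads were analysed here.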

How the data were processed

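Per the labels and the study's methods, the authors made stranded, ribosomal RNA-depleted, single-end 50-base libraries with ERCC RNAs, aligned them to hg38 with HISAT2 2.1.0 (reverse-strand and transcript-assembly options), assembled transcripts with StringTie and divided gene counts by DESeq2 size factors. The deposited short-read values are thus a normalized signal per gene, not raw counts: each was a whole multiple of 1 read at a tolerance of 0.001 (100% of values), and whole reads were recovered for the count tests, though StringTie derives counts from coverage and a read is then an estimate. Total depth was 38895027 to 79523938 reads. The long-read values the authors deposited are TPM per transcript, aligned with minimap2 in splice mode without canonical splice sites, and were used only for coverage at a TPM above 0.

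Loci were placed with GENCODE release 44, later than the authors' annotation. limma 3.58.1 (R 4.3.3, trend) was fitted to log2(normalized count + 1) over 26066 genes longer than 200 bases with at least 10 normalized counts in 3 libraries, 3 chromatin against 3 nucleoplasm libraries, with Benjamini-Hochberg adjustment. Further limma fits used locus minus host and 5'-most minus 3'-most locus. The main fit and the locus minus host fit were run on simulated counts, but the 5'-most minus 3'-most fit was not. The simulation used a single fixed spread between replicates for all genes. It does not show how the fits perform at the spread of these loci. Near-identical sequences were found with blastn 2.17.0 against GENCODE transcripts and ribosomal DNA, and repeated words by exact search of hg38. edgeR 4.0.16 and DESeq2 1.42.0 were alternatives. The members and lists were chosen with earlier results of these data known, and the identity limits, the gap measures and the leaving out of matched or short loci after seeing the data. Named loci are those of the 8 hosts with most loci, the 8 with the highest mean, the 5 highest and 5 lowest ratios among loci detected in each library, and the listed hosts. Some items are not reported here.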

Additional observations from a re-analysis of the deposited data

How the results depend on the processing

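The 651 loci called higher in chromatin became 649 to 653 when each replicate was left out in turn, 653 with edgeR and 655 with DESeq2, 674 with no filter on low counts, 337 with at least 10 normalized counts in all 6 libraries, 366 with the exon at least 5000 bases away (388 loci) and 422 with hosts of at least 200000 bases (451 loci). The last 3 have fewer loci by construction. The 5 loci called higher in nucleoplasm became 4 to 6 with a replicate left out, 22 under ERCC scaling, 2 at equal totals, 18 with a 2-fold minimum, and 0 without near-identical copies or for loci of at least 1000 bases, alternatives chosen after seeing the data (of the latter 3 were at an unadjusted p below 0.05 in that direction). The median log2 fold change of 4.75 was 4.60 to 4.86 with a replicate left out, 4.20 with a pseudocount of 5, 3.54 under ERCC scaling and 5.18 at equal totals. Calls along the host, 41 of 130, were 79 with a pseudocount of 5 and 27 to 45 with a replicate left out, the lowest without chromatin replicate 2 (14 towards 5', 13 towards 3'). The cause was not tested. Among 48 named loci, DLG2 MSTRG.5782 turned from -0.12 to 0.33 at equal totals, and SLCO5A1 MSTRG.32407 from -0.44 to 0.23 with DESeq2, 0.16 with edgeR, 0.021 at equal totals and -1.36 to 0.031 with a replicate left out (without chromatin replicates 1 and 3).

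Samples with the same replicate number deviated together only weakly, with correlations of 0.087, 0.053 and 0.063, none over 0.1, though each correlated best with its own number. The fractions came from 3 cultures, but whether a number marks a culture is not given in the sources used here, so the pairing is uncertain. With a replicate block the calls were 651 and 5 with a median of 4.75, 681 against the host and 33 along the host (18 towards 5', 15 towards 3'). With 3 libraries a group and nucleoplasm values often under 10, the ratio of short loci is imprecise.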
